A study of Mus musculus with 24 samples.

Results

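Transcripts of 10 genes that mark vascular endothelium were followed in epithelial and mesenchymal cells sorted from mouse lung after irradiation, in all 24 libraries of the series. The genes were chosen by name. Pecam1, Cdh5, Cldn5, Kdr, Tek and Emcn stand for endothelium in general, and Lyve1, Prox1, Flt4 and Reln are used as lymphatic markers. All 10 matched 1 row in each of 2 deposited expression tables, out of 48795 gene identifiers per table. The sort was designed to remove endothelial cells from both populations. Which cells the transcripts found after it came from was not tested.

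The mice were female Balb/c, 8 weeks old, and each group was described as 4 mice. The sham group received sham irradiation and an IgG control antibody. The irradiated group received 13 Gy directed at the lungs and the IgG control antibody. The depleted group received the same 13 Gy and an anti-Ly6G antibody injected daily, Ly6G being an antigen on neutrophils; the group is called depleted here for its treatment. Lungs were taken 7 days later, and CD45-, CD31- and Ter119-negative cells were divided by EpCAM into an epithelial fraction (EpCAM-positive) and a mesenchymal fraction (EpCAM-negative), giving 4 libraries per group and fraction. One label entry names CD31 in the gate where the protocol text writes CD45 a second time. No sham animal received the depleting antibody, so its action without irradiation was not measured.

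Endothelial cells line blood and lymphatic vessels. Blood endothelium is held together by junctions of VE-cadherin and claudin-5, and is maintained by VEGF signalling through VEGFR2 and by angiopoietin signalling through TIE2. Lymphatic endothelium is specified by the transcription factor PROX1 and depends on VEGFR3. None of the lymphatic markers is exclusive: VEGFR3 is also made by blood endothelium, LYVE1 by some tissue macrophages, PROX1 by other epithelial and neuroendocrine cells, and reelin by neurons and some stromal cells.

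Each library held between 7366672 and 13373329 recovered reads, and values are the authors' normalised counts, meaning reads divided by a library size factor. In a library, 3 reads were worth between 2.36 and 3.81 normalised counts. The sort was visible in Epcam, the gene of the selected surface antigen, which averaged 1151 ± 31.9 (SD, n = 4) in epithelial sham and 8.55 ± 7.64 in mesenchymal sham. Leukocyte transcripts were also present: Ptprc, which encodes the CD45 used for exclusion, averaged 68.4 ± 37.4 in epithelial sham and 193 ± 91.8 in mesenchymal sham. Ly6g, the antigen of the depleting antibody, was at 5 normalised counts or less in every library. Other neutrophil transcripts, from cells that the CD45 gate was meant to remove, were present in the depleted libraries: the 10 neutrophil markers summed to 251 ± 154 in irradiated and 245 ± 151 in depleted epithelial libraries, and to 491 ± 184 and 394 ± 188 in mesenchymal ones. Between those groups none of 7 tested passed limma in the epithelial table (2 had an unadjusted p under 0.05). Of the 7, 2 fell in the mesenchymal table, where 0.674% of all genes fell: Csf3r, the G-CSF receptor (log2 change -2.37 ± 0.39, limma adjusted p = 0.00711), and the chemokine receptor Cxcr2 (-1.61 ± 0.41, 0.0471). The tables were normalised separately, so each comparison was made inside 1 fraction and no difference between fractions was tested.

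The pan-endothelial transcripts were present in every library of both fractions. Per kilobase of exon, which allows genes to be compared, Cdh5 led in epithelial sham at 45.5 ± 12.2 normalised counts per kilobase, followed by Kdr at 36.8 ± 9.45, Pecam1 at 26.4 ± 5.12, Cldn5 at 22.7 ± 4.89 and Tek at 22 ± 4.14. Neighbours in that order overlapped. Epcam stood at 524 ± 14.5 on the same scale. Lyve1 was separate from them at 7 ± 2.2, and Flt4 at 2.87 ± 0.422, Emcn at 2.03 ± 0.626, Prox1 at 1.54 ± 0.551 and Reln at 0.145 ± 0.0401 were lower still.

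In mesenchymal sham the order per kilobase began with Tek at 95.4 ± 14.8 and Cdh5 at 86.6 ± 42, which overlapped. Pecam1 at 46.9 ± 20.8, Cldn5 at 40.6 ± 20.1, Kdr at 28.8 ± 14 and Lyve1 at 11.6 ± 5.61 followed, each overlapping the next. Flt4, Emcn, Prox1 and Reln lay between 3.74 and 0.902 per kilobase. The fibroblast collagen gene Col1a1 was at 5329 ± 771 per kilobase in the same libraries. Lyve1 moved up this order in the depleted group alone. It was at place 6 in sham and also in irradiated mesenchymal libraries, where it reached 61.6 ± 22.1 per kilobase. In depleted ones it was at place 3, at 79.6 ± 20.8, and its range overlapped those of Tek and Pecam1 beside it.

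**Figure D1:**
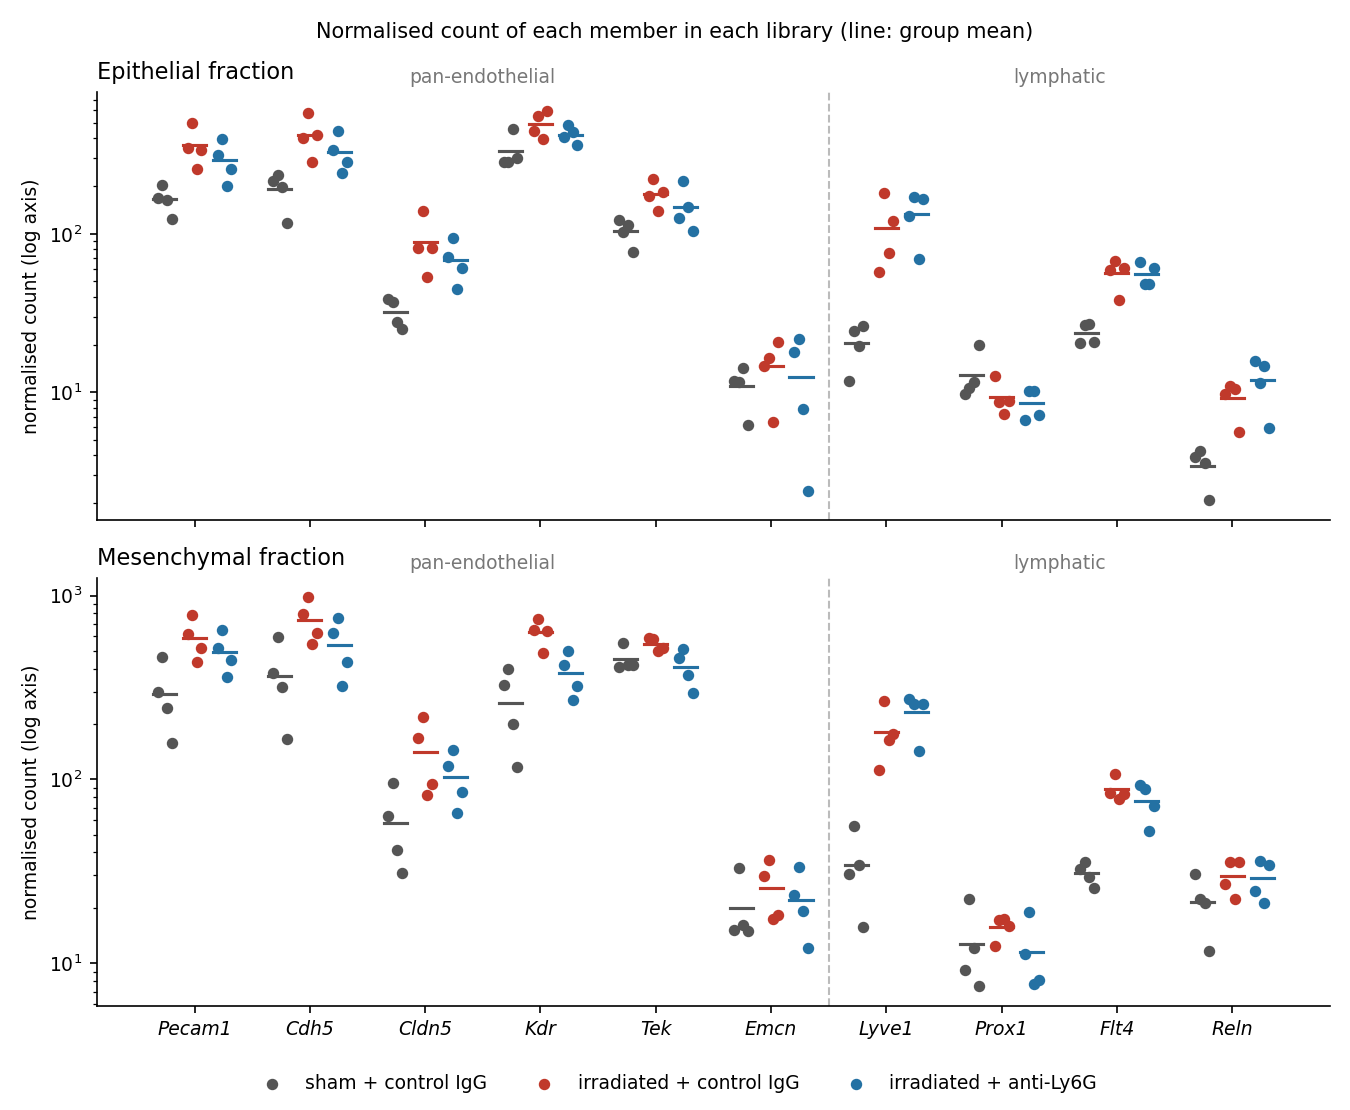
Normalised count of each gene (log axis) in each library of the epithelial (top) and mesenchymal (bottom) fraction; points are libraries, coloured by group, and the line is the group mean (n = 4). Lyve1 and Flt4 are higher in all irradiated and all depleted libraries than in any sham library of the same fraction, whereas Prox1 and Emcn overlap between all groups.

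Promoter sequence was one property that the choice of genes did not use. The promoter table, from RefSeq on GRCm38.p6, held 8 windows for 7 of the 10 genes; Pecam1, Cdh5 and Lyve1 had no entry. The 250 bases before each start were searched on both strands for AGGAAG, a core bound by ETS factors, and TAAACA, a forkhead core. Shorter or variant ETS sites were not searched, so a window without AGGAAG may still hold one. The third motif searched was AGATAA, which zinc finger factors of the haematopoietic and endothelial lineages bind. AGGAAG occurred in 29.5% of all 32851 such windows and, among these genes, in Emcn alone, once on each strand (capitals below; CTTCCT is the same motif read on the other strand). TAAACA occurred in 12.03% of windows and in 1 of the Prox1 windows, and AGATAA in 9.99% of windows and in none of the 8. Emcn is shown beside Cldn5 and Flt4, which rose after irradiation in the results that follow and whose windows hold none of the 3 motifs. All 3 lie on the plus strand: Emcn at chr3:137340828-137341077, Cldn5 at chr16:18776597-18776846 and Flt4 at chr11:49609429-49609678.
Emcn: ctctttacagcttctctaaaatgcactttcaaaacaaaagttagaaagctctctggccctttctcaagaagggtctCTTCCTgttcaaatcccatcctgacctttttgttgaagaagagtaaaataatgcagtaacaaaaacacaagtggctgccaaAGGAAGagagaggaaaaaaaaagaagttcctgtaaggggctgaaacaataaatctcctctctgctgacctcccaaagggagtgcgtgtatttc
Cldn5: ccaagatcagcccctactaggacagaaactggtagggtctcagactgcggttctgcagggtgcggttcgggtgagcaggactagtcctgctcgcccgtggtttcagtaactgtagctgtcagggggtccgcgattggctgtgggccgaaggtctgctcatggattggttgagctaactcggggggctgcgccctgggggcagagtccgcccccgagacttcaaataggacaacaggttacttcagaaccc
Flt4: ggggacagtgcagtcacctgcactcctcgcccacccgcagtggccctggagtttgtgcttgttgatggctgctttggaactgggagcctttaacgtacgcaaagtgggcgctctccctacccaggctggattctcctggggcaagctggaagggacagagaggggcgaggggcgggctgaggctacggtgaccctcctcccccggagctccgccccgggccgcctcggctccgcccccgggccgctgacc
The G and C content of these windows was 40.8% for Emcn, 59.6% for Cldn5 and 68.4% for Flt4. A motif match is a description of the letters and not of binding.

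The first comparison was irradiated against sham in the epithelial fraction. Endothelial transcripts were higher after irradiation: 4 of the 10 genes rose and none fell at an adjusted p under 0.05 (limma, Benjamini-Hochberg over 16626 genes), where 2.26% of all tested genes rose and 0.878% fell. The 4 were Pecam1 and Cldn5 of the pan-endothelial genes and Lyve1 and Flt4 of the lymphatic ones. The median log2 change was 0.94 over the 6 pan-endothelial genes and 1.20 over the 4 lymphatic genes, where the median over all tested genes was -0.0071. Every irradiated library was above every sham library in 6 of 9 genes, which held for 4.94% of all genes. This count leaves out Reln, which passed the filter on low values only through the irradiated and depleted libraries; without it the lymphatic median over 3 genes was also 1.20. In bulk RNA, more cells of a type and more RNA per cell cannot be told apart.

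Pecam1 (chr11:106654217-106750628 on GRCm38, as for the genes below) encodes CD31, the surface antigen used to gate endothelium out. Its epithelial values were 169, 202, 164 and 124 in sham replicates 1 to 4 and 348, 502, 257 and 336 in irradiated ones. The lowest irradiated library was above the highest sham library, and the log2 change was 1.11 ± 0.25 (SE; limma adjusted p = 0.0397). That call was lost without any 1 of 8 libraries (sham replicates 1, 3 and 4, irradiated replicates 1, 2 and 4, depleted replicates 1 and 4), with adjusted p between 0.0551 and 0.113, and with no low-value filter (0.0769).

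Cdh5 (chr8:104101625-104144511) encodes VE-cadherin, the adhesion molecule of endothelial junctions. It had 214, 236, 197 and 118 in epithelial sham and 399, 576, 282 and 421 in irradiated libraries. The groups did not overlap, yet the log2 change of 1.13 ± 0.28 missed the threshold (limma adjusted p = 0.0675). Without irradiated replicate 3 its adjusted p was 0.037, and DESeq2 on recovered reads gave 0.00377.

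Cldn5 (chr16:18776847-18778262), the claudin that seals endothelial tight junctions, had the largest pan-endothelial change here. Its values were 39, 37.1, 27.7 and 25 in sham and 81.2, 139, 53.4 and 81.2 in irradiated epithelial libraries. The log2 change was 1.37 ± 0.27 (limma adjusted p = 0.00964), and the call held in all 22 alternatives. The groups did not overlap.

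Kdr (chr5:75932827-75978458) encodes VEGFR2, the main signalling receptor for VEGF-A, and Tek (chr4:94739289-94874976) encodes TIE2, the angiopoietin receptor. Epithelial Kdr was 285, 284, 459.9 and 301 in sham and 442, 552, 394 and 591 in irradiated libraries. Sham replicate 3 lay inside the irradiated range, and the log2 change of 0.58 ± 0.17 was not called (limma adjusted p = 0.108; 0.0074 without that library). Tek was 122, 103, 113 and 77 in sham and 173, 221, 138 and 183 in irradiated libraries, without overlap, at a log2 change of 0.78 ± 0.21 (limma adjusted p = 0.0706). Leaving out irradiated replicate 3 or depleted replicate 2 or 4 brought Tek under the threshold, at 0.0159 to 0.0423. Emcn (chr3:137341067-137432185), the sialomucin of capillary and venous endothelium, rested on 2 to 26 reads per epithelial library and was not called, at 0.33 ± 0.52.

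Lyve1 (chr7:110850607-110863239) encodes the hyaluronan receptor of lymphatic vessels. It was at 11.7, 24.4, 19.6 and 26 in epithelial sham and at 57.7, 182, 75.3 and 119.8 in irradiated libraries. The lowest irradiated value was more than the highest sham value, and the log2 change of 2.28 ± 0.40 was the largest of the 10 (limma adjusted p = 0.0116). The adjusted p was at most 0.0443 in the 22 alternatives.

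Flt4 (chr11:49609263-49652739) encodes VEGFR3, the receptor for VEGF-C and VEGF-D. Its epithelial values were 20.5, 26.5, 26.8 and 20.8 in sham and 58.7, 67.8, 38 and 61.1 in irradiated libraries. The groups did not overlap, with a log2 change of 1.20 ± 0.20 (limma adjusted p = 0.00211) and an adjusted p of at most 0.0135 in 21 alternatives. Prox1 (chr1:190118035-190170714), the factor that specifies lymphatic identity, showed no rise. It had 9.76, 10.6, 11.6 and 19.8 in sham and 12.7, 8.67, 7.28 and 8.84 in irradiated libraries, overlapping, at a log2 change of -0.40 ± 0.32 (limma adjusted p = 0.655) on 6 to 19 reads per epithelial library.

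Reln (chr5:21884454-22344702) encodes the secreted glycoprotein reelin. It stood at 3.9, 4.24, 3.57 and 2.08 in epithelial sham, or 2 to 4 reads, and at 9.79, 11, 10.5 and 5.63 in irradiated libraries. It did not overlap between the groups, but the log2 change of 1.19 ± 0.39 was not called (limma adjusted p = 0.117). As it passed the filter through the higher groups alone, its difference from sham was partly required by the filter.

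**Figure D2:**
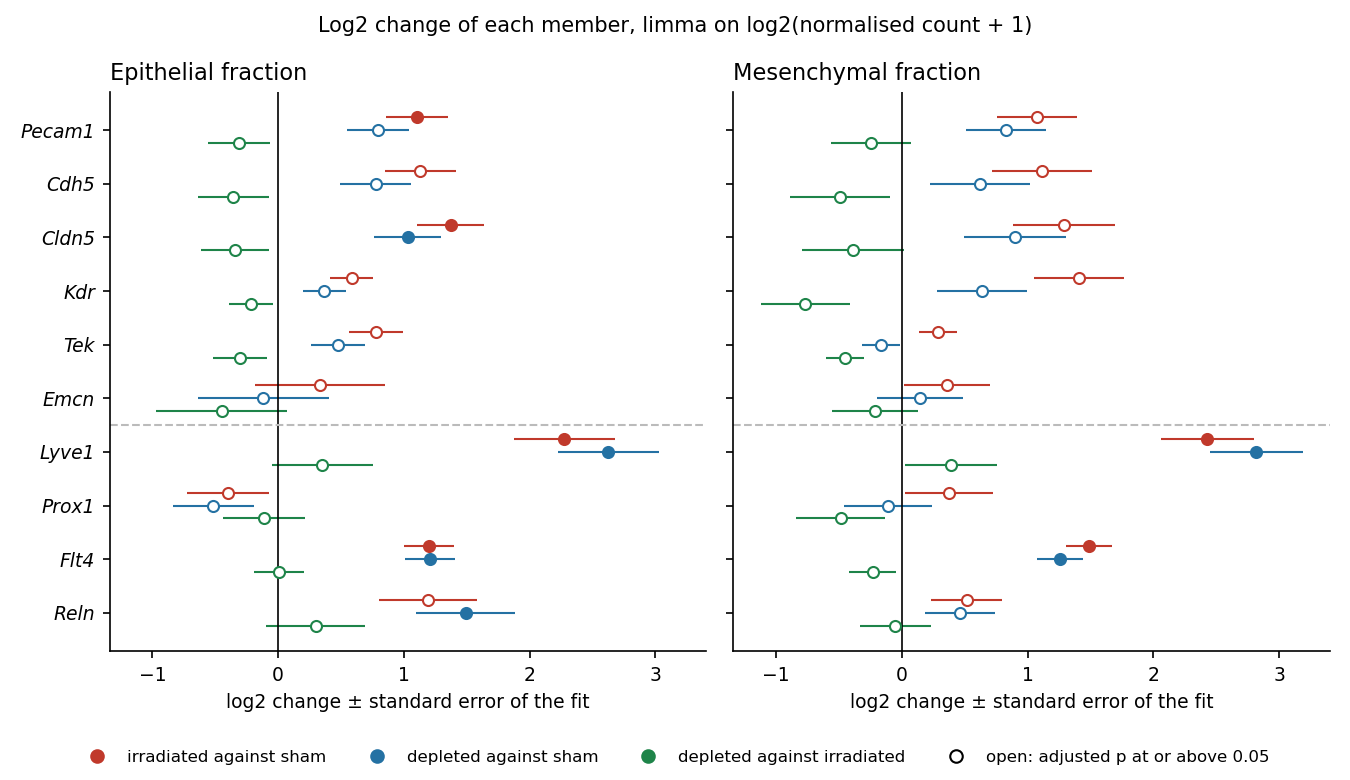
Log2 change ± standard error of each gene (limma fit on log2 of normalised count + 1) for the 3 comparisons in each fraction; filled points have an adjusted p under 0.05 and the dashed line divides pan-endothelial (above) from lymphatic genes. Lyve1 and Flt4 are filled in both comparisons with sham in both fractions, and no point is filled for depleted against irradiated.

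In the mesenchymal fraction, irradiated against sham gave 2 called genes of 10, Lyve1 and Flt4, both higher, where 2.64% of 16624 tested genes rose. None fell, against 1.15% of all genes. The 6 pan-endothelial genes had a median log2 change of 1.10 but none passed the test, and only Kdr among them was free of overlap (3 of the 10 in all, against 6.26% of all genes). Without sham replicate 2, the highest sham library for all of these genes except Reln, 5 of the 10 were called, adding Pecam1 (adjusted p = 0.0223), Cldn5 (0.0371) and Kdr (0.0219).

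Mesenchymal Kdr was 325, 399.7, 199.9 and 117 in sham and 653, 749, 485 and 640.3 in irradiated libraries, a log2 change of 1.41 ± 0.36 (limma adjusted p = 0.0584). Cdh5 was 379, 592, 318 and 166 in sham and 790.1, 978, 542 and 627 in irradiated libraries, a change of 1.11 ± 0.40 (adjusted p = 0.148). Pecam1 was 300.2, 465, 245 and 157 in sham and 618, 779.6, 432 and 516 in irradiated libraries (1.08 ± 0.32, adjusted p = 0.0877). For both Cdh5 and Pecam1, sham replicate 2 was above the lowest irradiated library.

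Cldn5 showed the same overlap. It had 62.9, 95.2, 41.4 and 30.8 in sham and 167, 219.7, 82.4 and 93.9 in irradiated mesenchymal libraries, at 1.29 ± 0.40 (limma adjusted p = 0.0998). Tek was the least changed of the 6: its values of 407, 554, 419 and 418 in sham and 587, 577, 499 and 518 in irradiated libraries gave a log2 change of 0.29 ± 0.15 (adjusted p = 0.302). Emcn was also not called, at 0.36 ± 0.34.

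Mesenchymal Lyve1 was 30.4, 55.4, 34.3 and 15.8 in sham and 112, 267, 164 and 176 in irradiated libraries. The log2 change of 2.43 ± 0.37 (limma adjusted p = 0.00535) again came from groups that did not overlap. Flt4 was 32.5, 35.6, 29.3 and 25.8 in sham and 84.6, 107, 78.3 and 82.9 in irradiated libraries. Its change of 1.49 ± 0.19 had the lowest adjusted p of the 10, at 0.000282. Both calls held in all 22 alternatives, with adjusted p of at most 0.0217 for Lyve1 and 0.00191 for Flt4.

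The other lymphatic genes were not called there. Prox1 was 9.13, 22.3, 12.1 and 7.48 in sham and 12.4, 17.1, 17.3 and 15.9 in irradiated mesenchymal libraries, a log2 change of 0.38 ± 0.35 (limma adjusted p = 0.586) on 8 to 27 reads per library. Reln, which stood higher here than on the separate scale of the epithelial table, was 30.4, 22.3, 21.2 and 11.6 in sham and 26.8, 35.3, 22.4 and 35.4 in irradiated libraries, at 0.51 ± 0.28 (adjusted p = 0.315). Both overlapped between the groups.

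The question of whether the anti-Ly6G antibody altered these transcripts in irradiated lungs is addressed by depleted against irradiated. In neither fraction did any of the 10 genes pass the test (limma; 0.475% of epithelial and 2.69% of mesenchymal genes passed in either direction). No epithelial gene of the 10 had an unadjusted p under 0.05, and 1 mesenchymal gene, Tek, did. edgeR and DESeq2 on the recovered reads also called 0 of 10 in both fractions, whereas a fit with the replicate number as a block called Tek lower in the mesenchymal fraction. All 6 pan-endothelial genes had log2 changes below 0 in both tables, between -0.45 and -0.22 in the epithelial and between -0.77 and -0.22 in the mesenchymal fraction, but every one of them overlapped between the groups; depleted libraries were all lower for 3.18% of epithelial and 3.93% of mesenchymal genes.

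Among mesenchymal genes Kdr had the largest difference from the irradiated group, and Tek the lowest p. Kdr was 419, 498, 269 and 322 in depleted mesenchymal libraries, at -0.77 ± 0.36 (limma adjusted p = 0.296). Tek was 455, 510.2, 367 and 293 there, at -0.45 ± 0.15 (adjusted p = 0.133). In each case the highest depleted library was above the lowest irradiated one.

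Lyve1 had the opposite sign. Epithelial Lyve1 was 130.2, 172, 68.8 and 165 in depleted libraries, 0.35 ± 0.40 above irradiated on the log2 scale (limma adjusted p = 0.791). Mesenchymal Lyve1 was 274, 258, 142 and 256, at 0.39 ± 0.37 (adjusted p = 0.634). Both overlapped the irradiated range. Flt4 was 66.2, 48.3, 48.5 and 61 in epithelial depleted libraries, a change of 0.01 ± 0.20, and 93.3, 88.2, 52.2 and 71.6 in mesenchymal ones, a change of -0.23 ± 0.19.

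Depleted against sham shares the sham libraries with irradiated against sham, so the 2 comparisons are not independent. In the epithelial fraction 4 of 10 genes rose and none fell, where 6.52% of all genes rose and 4.76% fell. Leaving out Reln for its filter, 3 of 9 rose, and every depleted library was above every sham library for 4 of 9, against 8.76% of all genes. The genes that rose were Lyve1 by 2.63 ± 0.40 (limma adjusted p = 0.00219), Reln by 1.49 ± 0.39 (0.0194), Flt4 by 1.21 ± 0.20 (0.000862) and Cldn5 by 1.03 ± 0.27 (0.0213) on the log2 scale. Depleted Cldn5 was 71.8, 94.1, 45.1 and 61, all above sham. Reln was 15.7, 11.4, 14.7 and 5.98, also all above sham, with the limit from the filter given above. The Cldn5 call was lost without sham replicate 3 or 4 or depleted replicate 1 or 2 (adjusted p 0.0595 to 0.0702), and the Reln call without sham replicate 4 or depleted replicate 1 or 3 (0.0531 to 0.0687). Without sham replicate 4, and likewise without depleted replicate 1, 2 genes were called.

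Pecam1 and Cdh5 lay between the other groups in the depleted epithelial libraries. Pecam1 was 313, 394, 199.7 and 257, with its lowest library under the highest sham one, at 0.79 ± 0.25 against sham (limma adjusted p = 0.0673). Without irradiated replicate 2 or depleted replicate 3 that adjusted p was between 0.0271 and 0.0372. Cdh5 was 338, 444, 240.4 and 282, just clear of sham, at 0.78 ± 0.28 (adjusted p = 0.117). Kdr (0.37 ± 0.17) and Tek (0.48 ± 0.21) were not called, and removal of sham replicate 3 brought Kdr to an adjusted p of 0.0218. Prox1 was 6.73, 10.2, 10.2 and 7.18, at -0.51 ± 0.32 (adjusted p = 0.354).

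In the mesenchymal fraction 2 of 10 genes rose against sham and none fell, where 8.51% of all genes rose and 6.7% fell. They were also the only 2 of the 10 without overlap, against 10.3% of all genes. Lyve1 rose by 2.82 ± 0.37 (limma adjusted p = 0.000514) and Flt4 by 1.26 ± 0.19 (0.000345), both on the log2 scale. The 6 pan-endothelial genes had a median of 0.63 and none was called. Pecam1 was 519, 648, 359.5 and 449 in depleted libraries (0.83 ± 0.32, adjusted p = 0.111), and it passed at 0.0268 without sham replicate 2. Cdh5 was 628, 759, 322 and 433 (0.62 ± 0.40, adjusted p = 0.34), overlapping both other groups.

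Within a group Pecam1, Cdh5 and Cldn5 varied in nearly the same order of libraries. For Pecam1 and for Cdh5, replicate 2 was the highest library in all 3 groups of both fractions. The lowest was replicate 4 in sham and replicate 3 in the irradiated and depleted groups, again in both fractions. Cldn5 had the same highest and lowest libraries except that replicate 1 was highest in epithelial sham. Kdr, Tek and Emcn departed from it in several groups; epithelial Kdr, for example, was highest in sham replicate 3 and irradiated replicate 4. Replicate 2 was also the highest library for Ptprc in every group of both fractions, and the part of leukocyte carry-over in this order was not tested. Both fractions were divided from cells of the same groups of mice, so agreement between fractions may not be independent.

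Likeness to Cdh5 was described by Pearson's r of deviations from the group means of log2(value + 1) over the 12 libraries of a table, with no p because libraries share their sort and depth. In the epithelial table the 5 most similar genes were Plvap (r = 0.98), Eng (0.97), Pecam1 (0.96), Arap3 (0.96) and Abcg1 (0.96). Plvap encodes the diaphragm protein of fenestrated and venous endothelium, and Eng the co-receptor endoglin. In the mesenchymal table they were Ppp1r16b (0.98), Pecam1 (0.98), Cd93 (0.98), Sema3g (0.97) and Calcrl (0.97). Cldn5 reached r = 0.91 and 0.94 in the 2 tables. Kdr followed Cdh5 in the mesenchymal table (r = 0.95) and only weakly in the epithelial one (0.38).

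Lyve1 had r of 0.38 to Cdh5 among epithelial and 0.81 among mesenchymal libraries. Among epithelial libraries this was the value of Kdr, above Reln (0.30) and Prox1 (-0.32) and below Pecam1, Cldn5, Tek (0.78), Emcn (0.68) and Flt4 (0.54). Among mesenchymal libraries it was below Pecam1, Kdr, Cldn5 and Flt4 (0.86). It was above Prox1 (0.77), Emcn (0.76), Tek (0.69) and Reln (0.68) there. The 5 epithelial genes most similar to Lyve1 were Gm43549 (0.94), Pde7a (0.92), Abca4 (0.92), Tvp23a (0.91) and Syt5 (0.91). In the mesenchymal table they were C5ar1 (0.95), Ctla2a (0.94), Gm45074 (0.93), Nexmif (0.93) and Chil3 (0.91). C5ar1, the receptor for complement C5a, and Chil3, a chitinase-like protein, are known from myeloid cells, and neither was among the epithelial 5. Which cells lay behind these likenesses was not tested. Prox1 was at r = -0.042 to Lyve1 among epithelial and 0.75 among mesenchymal libraries.

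Each gene was also expressed as its ratio to Cdh5 in the same library, a description chosen after the values were seen. Such a ratio moves with Cdh5 itself, which was on average higher in irradiated than in sham libraries and lower in depleted than in irradiated ones (734 ± 192 and 535 ± 195 in the mesenchymal fraction). Pecam1 to Cdh5 overlapped between all epithelial groups, at 0.883 ± 0.117 in epithelial sham, 0.864 ± 0.0483 in irradiated and 0.889 ± 0.042 in depleted libraries. In the mesenchymal fraction it was 0.823 ± 0.0816 in sham, 0.8 ± 0.017 in irradiated and 0.958 ± 0.141 in depleted libraries. All depleted libraries were above all irradiated ones, as for 3.33% of other genes. The margin was narrow, from 0.823 in the highest irradiated to 0.825 in the lowest depleted library. Lyve1 to Cdh5 was 0.12 ± 0.0712 in epithelial sham, 0.253 ± 0.0751 in epithelial irradiated and 0.411 ± 0.125 in epithelial depleted libraries. In the mesenchymal fraction it was 0.0942 ± 0.0113 in sham, 0.25 ± 0.0725 in irradiated and 0.452 ± 0.103 in depleted libraries.

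No mesenchymal library of one group overlapped another group in this Lyve1 ratio: the ranges were 0.0802 to 0.108, 0.142 to 0.302 and 0.34 to 0.591. Among all other tested genes the ratio to Cdh5 was higher without overlap for 0.271% in irradiated against sham, 3.33% in depleted against irradiated and 0.788% in depleted against sham mesenchymal libraries. Lyve1's own values overlapped between the depleted and irradiated groups. In the epithelial fraction depleted libraries were all above sham (0.608% of other genes), and irradiated libraries overlapped both. Flt4 to Cdh5 overlapped between all groups, at means of 0.13, 0.136 and 0.181 in the epithelial and 0.0982, 0.123 and 0.148 in the mesenchymal fraction. Prox1 to Cdh5 went the other way, from 0.0794 ± 0.0595 in epithelial sham to 0.0234 ± 0.00715 in irradiated and 0.0276 ± 0.01 in depleted libraries, with no overlap with sham. The ratio was likewise lower without overlap for 71.1% of other genes in irradiated and 39.6% in depleted against sham epithelial libraries. Its epithelial sham mean included 1 library at 0.168. Tek to Cdh5 in the mesenchymal fraction was 1.46 ± 0.721 in sham and 0.77 ± 0.14 in irradiated libraries, all irradiated ones being lower, as for 19% of other genes.

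**Figure D3:**
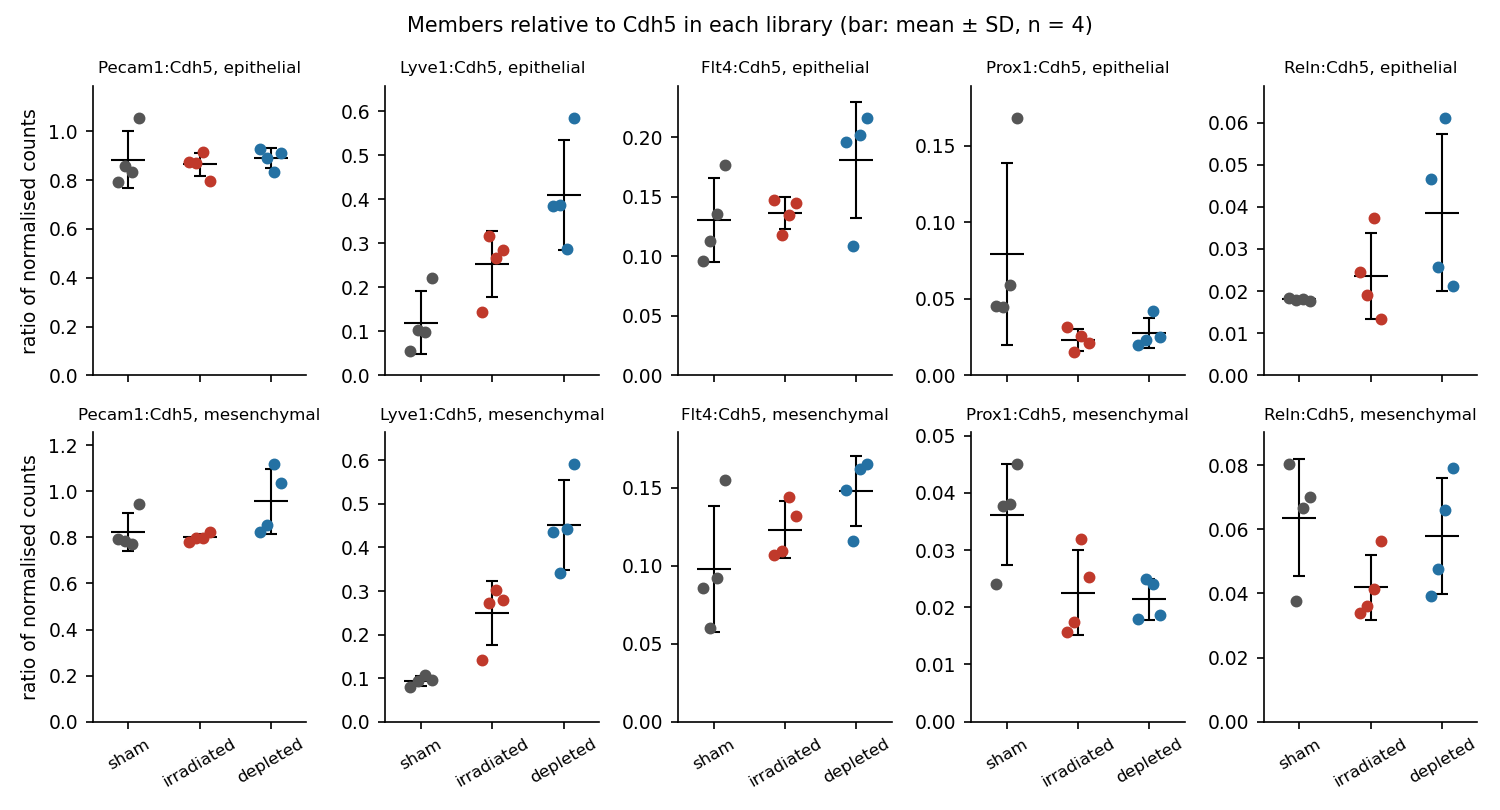
Ratio of the normalised count of Pecam1, Lyve1, Flt4, Prox1 and Reln to that of Cdh5 in each library (points), by group, with mean ± SD (n = 4); each axis starts at 0. The Lyve1 ratio separates the 3 mesenchymal groups, from 0.0802 to 0.108 in sham up to 0.34 to 0.591 in depleted libraries. The Pecam1 ratio lies between 0.771 and 1.12, and its lowest mesenchymal depleted library (0.825) is just above the highest irradiated one (0.823).

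Other blood endothelial markers mostly gave the same direction after irradiation. A further 24 of them had a median log2 change of 1.01 in irradiated epithelial libraries. Of the 24, 11 rose and none fell, where 2.26% of all genes rose. They included Robo4, a guidance receptor of vascular endothelium, which went from 15.3 ± 1.36 to 50.4 ± 18.1 (log2 change 1.60 ± 0.24, limma adjusted p = 0.000925), and Tie1, the partner of TIE2 (1.28 ± 0.27, adjusted p = 0.0167). The count was 7 without sham replicate 4, irradiated replicate 2 or irradiated replicate 4. In irradiated mesenchymal libraries 3 of the 24 rose and none fell, where 2.64% of all genes rose. The median was 0.89, and 14 rose without sham replicate 2. The 3 were Mmrn2, Robo4 and Icam2. Of 17 tested markers of particular vessel beds, 3 rose and none fell in each irradiated fraction, with medians of 0.56 (epithelial) and 0.30 (mesenchymal). The epithelial count was 0 to 5 when 1 library was left out and 0 to 6 in the other settings, with up to 1 called lower. The mesenchymal count was 2 to 5 in both kinds of alternative, with up to 2 called lower. Summed over the 18 listed, mesenchymal values lay between 10770 and 12266 in sham. After irradiation these sums were lower, between 9465 and 10714, although 13 of the 17 tested genes had log2 changes above 0. A sum follows its most abundant genes, and it was not set against sums of other genes. The lower sum is therefore not read as a fall of the list.

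Depleted against irradiated gave 0 of the 24 in either fraction by limma, edgeR and DESeq2, with 3 epithelial and 2 mesenchymal genes at an unadjusted p under 0.05. Of 17 tested markers of particular vessel beds, 2 rose and none fell in the mesenchymal fraction, Sele and Apln, where 2.02% of all genes rose; the median log2 change of the 17 was -0.065, and 4 were above 0. Sele, the E-selectin of activated endothelium, went from 30.3 ± 9.86 in irradiated to 84.5 ± 16.9 in depleted libraries (log2 change 1.49 ± 0.26, limma adjusted p = 0.00487). Apln, the ligand apelin, went from 49.2 ± 21.1 to 114 ± 32.5 (1.27 ± 0.30, adjusted p = 0.0362). The Apln call was lost without sham replicate 1, irradiated replicate 3 or 4 or depleted replicate 1, 2 or 4, with adjusted p up to 0.123. Against sham, Apln was already higher in irradiated mesenchymal libraries (1.85 ± 0.30, adjusted p = 0.00371), as was Selp, the P-selectin of endothelium and platelets (2.13 ± 0.27, adjusted p = 0.000293). In mesenchymal depleted against sham 4 of the 17 rose and 3 fell, where 8.51% of all genes rose and 6.7% fell.

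Of the other lymphatic markers, 2 of 10 tested rose in irradiated epithelial libraries and 1 of 13 in mesenchymal ones, with none called lower (2.26% and 2.64% of all genes rose). Their median log2 changes were 0.26 (epithelial) and 0.044 (mesenchymal). Leaving out any 1 of sham replicates 1, 3 and 4 and irradiated replicates 2 and 4 brought the epithelial count to 1. Stab1, a scavenger receptor of sinusoidal and lymphatic endothelium that macrophages also carry, was called in both, going from 30.3 ± 5.79 to 104 ± 26.7 in the epithelial (log2 change 1.72 ± 0.28, limma adjusted p = 0.00304) and from 58 ± 13.2 to 179 ± 48 in the mesenchymal fraction (1.60 ± 0.24, adjusted p = 0.00281). Ccl21a, the chemokine of lymphatic vessels, and Mmrn1 averaged at most 60.4 and 12.6 in any group of either fraction. Pdpn, which lymphatic endothelium shares with alveolar type 1 cells and fibroblasts, rose in depleted against irradiated mesenchymal libraries (0.94 ± 0.14, adjusted p = 0.00293), while Sema3d fell (-0.70 ± 0.12, adjusted p = 0.00718). In mesenchymal depleted against sham 2 of the 13 rose and 3 fell, where 8.51% of all genes rose and 6.7% fell.

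In the VEGF and angiopoietin pathway the receptor Flt1, which binds VEGF-A, rose in irradiated libraries. It went from 61.1 ± 13.5 to 170.2 ± 42.6 in the epithelial (log2 change 1.46 ± 0.21, limma adjusted p = 0.00146) and from 118 ± 53.4 to 319 ± 83 in the mesenchymal fraction (1.49 ± 0.30, adjusted p = 0.0242). The mesenchymal call was lost when any 1 of sham replicates 1, 3 and 4 and irradiated replicates 1, 2 and 4 was left out (adjusted p up to 0.0826), which left 0 or, without sham replicate 4, 1 pathway gene called. With Tie1, Flt1 made up the 2 of 16 tested pathway genes that rose in the epithelial table, and it was the only 1 of 20 in the mesenchymal table; none fell. All genes rose at shares of 2.26% and 2.64% in those tables, and the epithelial count fell to 1, with the Tie1 call lost, when sham replicate 3, sham replicate 4 or irradiated replicate 4 was left out. No ligand of the list was called in either. In depleted against irradiated mesenchymal libraries 3 of 20 rose and none fell, where 2.02% of all genes rose. They were Angptl4 (1.00 ± 0.16, limma adjusted p = 0.00476), Adamts3, the protease that helps to activate VEGF-C (0.99 ± 0.18, 0.00658), and the ligand Pgf (0.73 ± 0.16, 0.0264). The Pgf call was lost without any 1 of irradiated replicates 2, 3 and 4 and depleted replicates 1, 2 and 4, with adjusted p up to 0.0779.

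**Figure D4:**
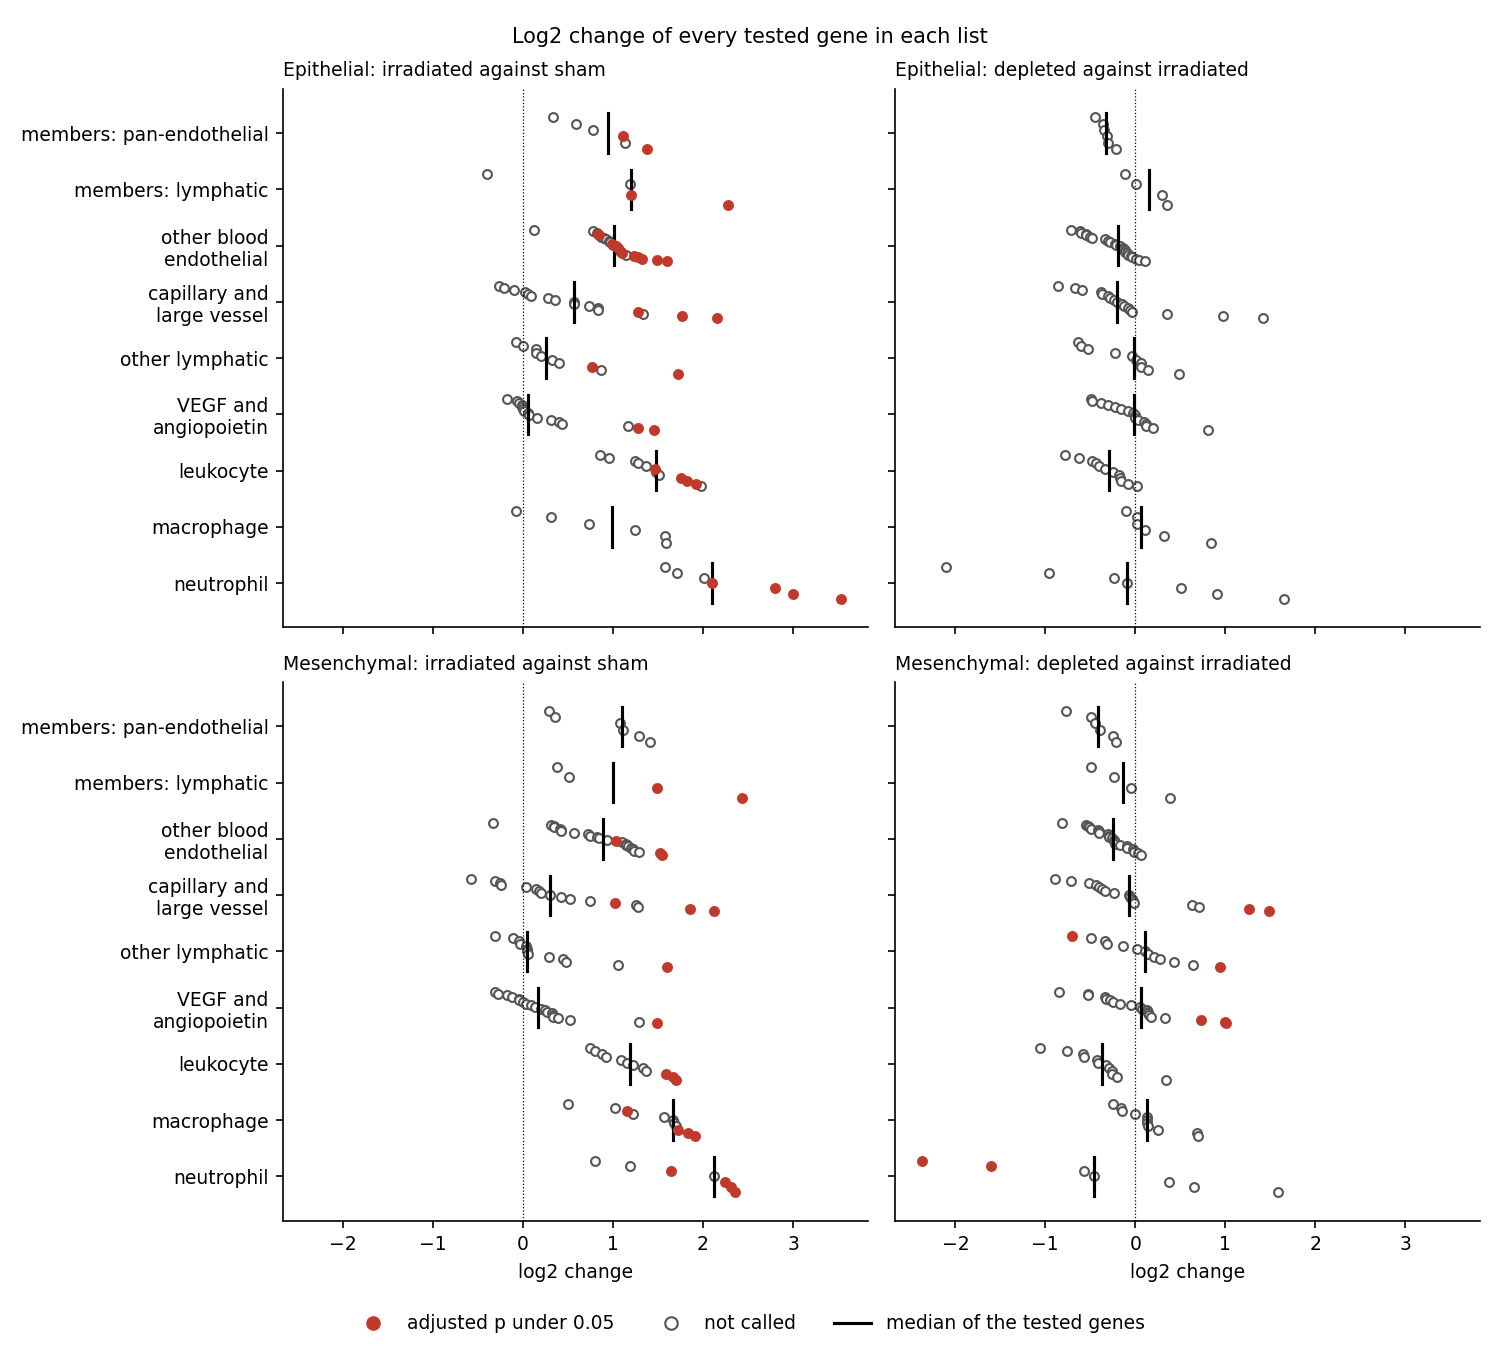
Log2 change of every tested gene in 9 gene lists, for irradiated against sham (left) and depleted against irradiated (right), in the epithelial (top) and mesenchymal (bottom) fraction; red points have an adjusted p under 0.05 and the black line is the list's median. After irradiation the endothelial and the leukocyte, macrophage and neutrophil lists all lie mostly above 0, and in the right panels the pan-endothelial genes lie below 0 with none called. Most epithelial neutrophil markers could pass the filter on low values only with the help of irradiated or depleted libraries.

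Some markers of other cell types rose beside the endothelial genes. Of all genes, 2.26% rose in irradiated epithelial and 2.64% in irradiated mesenchymal libraries against sham. Of 12 leukocyte markers, 4 rose and none fell in irradiated epithelial and 3 rose and none fell in irradiated mesenchymal libraries. Summed, they lay between 124 and 411 in the epithelial sham group, between 471 and 1197 after irradiation and between 474 and 711 after depletion. In the mesenchymal fraction the ranges in the same order were 340.1 to 1014, 971 to 2224 and 746 to 1665. Of 7 tested neutrophil markers, 4 rose and none fell in irradiated libraries of each fraction, with medians of 2.10 (epithelial) and 2.12 (mesenchymal) on the log2 scale. Against sham, 5 of the 7 rose in depleted epithelial and 4 in depleted mesenchymal libraries, where 6.52% and 8.51% of all genes rose. In epithelial sham libraries the 10 listed neutrophil markers summed to only 13.5 to 57.3. Most of the 7 could therefore pass the filter on low values only with the help of irradiated or depleted libraries. Their epithelial rise over sham, and its median, were thus partly required by the filter.

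Of 11 epithelial markers tested in irradiated mesenchymal libraries, 2 rose, Krt8 and Abca3, none fell, 11 had log2 changes above 0 and the median was 0.79. Summed over 12 markers, they lay between 3390.2 and 6005 in sham, 5809 and 9899 in irradiated and 5757 and 8937 in depleted mesenchymal libraries. Of 8 mesothelial markers 1 rose, Rspo1, in each fraction, with medians of 0.65 (epithelial) and 0.81 (mesenchymal). In the irradiated epithelial fraction the pericyte gene Rgs5 rose (2.52 ± 0.38, limma adjusted p = 0.000903), the only 1 of 11 pericyte and smooth muscle markers, as did 2 of 12 fibroblast markers, Col3a1 (0.43 ± 0.083, adjusted p = 0.00884) and Col1a2; none of these lists had a marker that fell. Of all genes, 2.26% rose in irradiated epithelial and 2.64% in irradiated mesenchymal libraries. A single call in a short list is therefore not read as a result about a cell type. The part of these other cell types in the rise of the endothelial genes was not tested.

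Macrophage markers bear on Lyve1 in particular. Of the 14 listed, 6 were tested in the epithelial table, where none was called in irradiated and 4 rose in depleted libraries against sham. In the mesenchymal table there were 11, of which 4 rose in irradiated and 8 in depleted libraries against sham, with none called lower in any of these. Of all genes, 6.52% rose in depleted epithelial libraries, and 2.64% and 8.51% in irradiated and depleted mesenchymal ones. Summed over the list, mesenchymal levels lay between 248 and 515 without irradiation, between 592 and 1310.0 with it and between 590.5 and 1058 with depletion added. The epithelial ranges were 376 to 633, 579 to 1027 and 659 to 904. Mrc1, the mannose receptor of macrophages and some lymphatic and sinusoidal endothelium, averaged 70.2 ± 44.7, 221 ± 133 and 183 ± 51.6 in the mesenchymal groups. Among the 8 that rose in depleted mesenchymal libraries, Cd163, C1qc, C1qb and C1qa had the largest changes against sham. Folr2 and Timd4, which mark macrophages that carry LYVE1, averaged at most 5.58 and 2.89 in any group. Those 2 genes were picked after their values were seen. The part of macrophages in the Lyve1 difference was not tested.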

How the data were processed

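RNA sequencing of 24 libraries from sorted mouse lung cells was analysed from 2 deposited tables, 1 per fraction. Per the submitters' processing notes, cutadapt 1.5, STAR 2.2.2a, SAMtools 1.8, RSEM 1.3.0, DESeq2 and the build GRCm38 were used; the annotation release is not given in the sources used here. The deposited signal values are normalised counts, that is, counts divided by a library size factor by the authors. Dividing by the smallest value above 0 gave whole reads for all values (tolerance 0.001), which served as input to edgeR and DESeq2.

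Symbols, positions and exon lengths came from GENCODE M21 (48349 of 48795 identifiers matched), and promoter sequences from RefSeq. Groups came from the sample labels, and replicates are described as separate mice. The main test was limma 3.58.1 (trend, robust; R 4.3.3) on log2(value + 1), with 1 mean per group in 1 fit per table, over genes with at least 10 in at least 4 of 12 libraries, Benjamini-Hochberg adjusted over all of these. All 10 genes passed that filter in both tables. A log2 change on this scale understates the change of low genes. Alternatives were pseudocounts of 0.5 and 8, no filter, a mean of at least 50, TMM scaling, library weights, a replicate block, edgeR 4.0.16, DESeq2 1.42.0, only the 2 groups compared, and leaving out each library. The fit was tested on simulated data. The genes and lists were chosen with earlier results of these data known. From the other lists, up to 4 called genes per list and comparison with the largest absolute change could be named, with Ptprc and Epcam and the 5 genes most like Cdh5 and Lyve1; other genes named were chosen after their values were seen. The ratios to Cdh5 and the replicate order are descriptions added after the values were seen.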

Additional observations from a re-analysis of the deposited data

Results flagged for a closer look

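In 60 gene and group pairs of 4 libraries, 4 had 1 library whose gap to the nearest other exceeded Dixon's critical share of the group's range; chance gives about 1 in 20. Kdr was 459.9 in epithelial sham replicate 3, where the other sham libraries lay between 284 and 301. Tek was 554 and Emcn 33.1 in mesenchymal sham replicate 2, the library that was also highest for Pecam1, Cdh5, Cldn5 and Kdr. Lyve1 was 142 in mesenchymal depleted replicate 3, the lowest of its group, where the other libraries lay between 256 and 274.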

How the results depend on the processing

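Over 1296 refitted values of the 10 genes, 1222 kept their direction and side of the threshold, 34 gained a call, 16 lost one and 24 changed sign, none of them called. Lyve1 and Flt4 kept their calls against sham in both fractions in every alternative in which they were tested. The number of the 10 genes called higher for irradiated against sham in the epithelial fraction was 7 with DESeq2 and 3 to 6 when 1 library was left out; in the mesenchymal fraction it was 5 with DESeq2 and 2 to 5. For depleted against sham it was 2 in the epithelial fraction with a mean of at least 50, where fewer genes are tested, and 2 to 5 when 1 library was left out; in the mesenchymal fraction it was 2 to 3. The cause of these shifts was not tested. Whether replicate numbers pair the samples was not settled, since correlations over all tested genes cannot exclude it. Correlations of deviations ranged from -0.11 to 0.17 over 24 pairs, and from 0.053 to 0.17 for replicate 2. The best match had the same number in 3 of 12 epithelial and 4 of 12 mesenchymal libraries. With a replicate block, 6 genes were called higher in irradiated against sham in each fraction, 6 (epithelial) and 4 (mesenchymal) in depleted against sham, and Tek was called lower (1 gene) in depleted against irradiated mesenchymal libraries.

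Sign changes were mostly near 0 on the log2 scale; ranges are over left-out libraries. For depleted against irradiated, epithelial Flt4 was -0.0389 with library weights, -0.0136 with edgeR, -0.0112 with DESeq2 and ranged from -0.17 to 0.11 (below 0 without irradiated replicate 3 or depleted replicate 1 or 4). Epithelial Emcn ranged from -0.81 to 0.10 (above 0 without depleted replicate 4) and epithelial Prox1 from -0.21 to 0.029 (above 0 without irradiated replicate 1). Mesenchymal Emcn ranged from -0.43 to 0.028 (above 0 without depleted replicate 4) and mesenchymal Reln from -0.18 to 0.081 (above 0 without irradiated replicate 2 or 4 or depleted replicate 1 or 3). For depleted against sham, epithelial Emcn was 0.0112 with a pseudocount of 8, 0.039 with library weights, 0.16 with edgeR, 0.17 with DESeq2 and ranged from -0.48 to 0.44 (above 0 without sham replicate 3 or depleted replicate 4). Mesenchymal Emcn ranged from -0.077 to 0.40 (below 0 without depleted replicate 2). Mesenchymal Prox1 was 0.020 with library weights and ranged from -0.36 to 0.18 (above 0 without sham replicate 2 or depleted replicate 3 or 4). No scaling, filter, weighting or tool moved the median of all genes by more than 0.1. Depth limits Prox1, Emcn and Reln, at 2 to 40 reads per library.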
